A study of Mus musculus with 16 samples.

Results

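The ribosomal DNA (rDNA) copy described here is the stretch of chromosome 17 of the mm10 assembly at chr17:39842000-39849500. Its members were the 562 CpGs of the series table inside these bounds, of 1203687 CpGs in the whole table, and every one had at least 10 reads in all 16 libraries. The libraries were target capture bisulfite sequencing of immortalised mouse embryonic fibroblasts (MEFs), which are connective tissue cells grown from embryos. MEF-1 came from a male and MEF-2 from a female sibling embryo of the C57BL/6J strain. Each parental line was sequenced once, and 7 clonal lines per parental line, each grown from a single sorted cell, gave 14 further libraries. No line was treated. Each family thus descends from 1 embryo, so embryo, sex and immortalisation cannot be told apart between families, and p-values measure the spread between clonal lines of each embryo. The families also differ in the coverage of whole chromosomes, given below, which cannot be told apart from these. The libraries held between 59243669 and 90633091 calls, and 0.517% to 0.665% of them lay at the member CpGs.

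Ribosomal RNA genes are transcribed by RNA polymerase I as 1 long precursor, in which an external transcribed spacer precedes the 18S rRNA, and the spacers are removed as the ribosome subunits are built. Mammalian genomes carry these genes in many near-identical tandem copies, most of which genome assemblies leave out, so reads from all copies can be placed on the few that an assembly holds. Methylation of rDNA is known to accompany silent copies, and a level between 0 and 100% can therefore be an average over copies as well as over cells.

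The annotation placed a lincRNA, Gm26917, at 39843013 to 39846341 on the plus strand and the 18S related pseudogene Rn18s-rs5 at 39846354 to 39848202 on the plus strand. It also placed an rRNA, CT010467.1, at 39846353 to 39848827 on the minus strand, over the 18S and the measured CpGs downstream of it. The members were divided by the first and second of these. The start window, from 250 bases before to 50 bases after the annotated start of Gm26917, held 7 CpGs. The 5' external transcribed spacer between it and the 18S held 372, the 18S held 101 and the sequence downstream of the 18S held 82. The first measured CpG lay at 39843001 and the last at 39848822. None of the 6 reference CpGs before the first member was a member, no annotated 5.8S or 28S lay in the window, and no rRNA transcript of the annotation other than CT010467.1 matched it over 50 bases or more at 95% identity or more, so levels of a repeat promoter, 5.8S and 28S are not analysed here.

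The sequences that carry the comparisons are given below on the plus strand of mm10, in lower case with the measured positions in capitals. The first is the beginning of the measured copy, at chr17:39842971-39843062, with its 7 CpGs. The second, at chr17:39844546-39844662, is the part of the spacer around the 3 CpGs with the highest dispersion in the model described below. The third, at chr17:39846345-39846443, is the border of the spacer and the 18S. The fourth, at chr17:39844931-39845005, holds the 3 CpGs with the largest called differences between families and the 3 with the highest levels.
Start: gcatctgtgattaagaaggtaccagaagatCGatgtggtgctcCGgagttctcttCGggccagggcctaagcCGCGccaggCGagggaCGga
Spacer stretch: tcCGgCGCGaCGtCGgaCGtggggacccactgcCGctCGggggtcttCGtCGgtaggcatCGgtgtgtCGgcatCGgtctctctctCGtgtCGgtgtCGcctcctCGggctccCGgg
18S border: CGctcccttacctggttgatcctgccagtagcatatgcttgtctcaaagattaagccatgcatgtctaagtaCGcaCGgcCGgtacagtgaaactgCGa
Spacer cluster: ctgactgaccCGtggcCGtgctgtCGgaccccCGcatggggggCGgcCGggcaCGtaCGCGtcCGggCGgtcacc

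As a mean over its CpGs, the copy was intermediately methylated in every library and more methylated in MEF-2 than in MEF-1. Averaged over the 562 CpGs, the level of the MEF-1 clonal lines was 14.7% in the lowest, 15.7% in the median and 18.03% in the highest line, with a mean of 16.2% ± 1.22 (SD, n = 7). The MEF-2 clonal lines reached 22.92%, 23.80% and 24.95% in the same order, with a mean of 23.7% ± 0.667 (SD, n = 7). The families did not overlap. The difference of 7.52 percentage points had p = 0.000583 in a two-sided exact permutation test over lines, the smallest value that 7 against 7 lines can give.

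The parental libraries lay on the same sides. The MEF-1 parental library was at 13.9%, below all 7 of its clonal lines, and the MEF-2 parental library was at 23.1%, below 5 of its 7 lines. With reads pooled over CpGs in place of averaging levels, the MEF-2 parental library was at 23.0% and its lowest line at 24.0%. By part, the MEF-2 parental library was below 7 of 7 lines in the spacer (23.9%) and in the start window (11.2%). It was below 4 of 7 downstream of the 18S (19.2%). In the 18S, with a median of 26.0 reads, it was at 24.2%, below 0 of 7. With 1 library per parental line these positions have no replicate check.

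**Figure D1:**
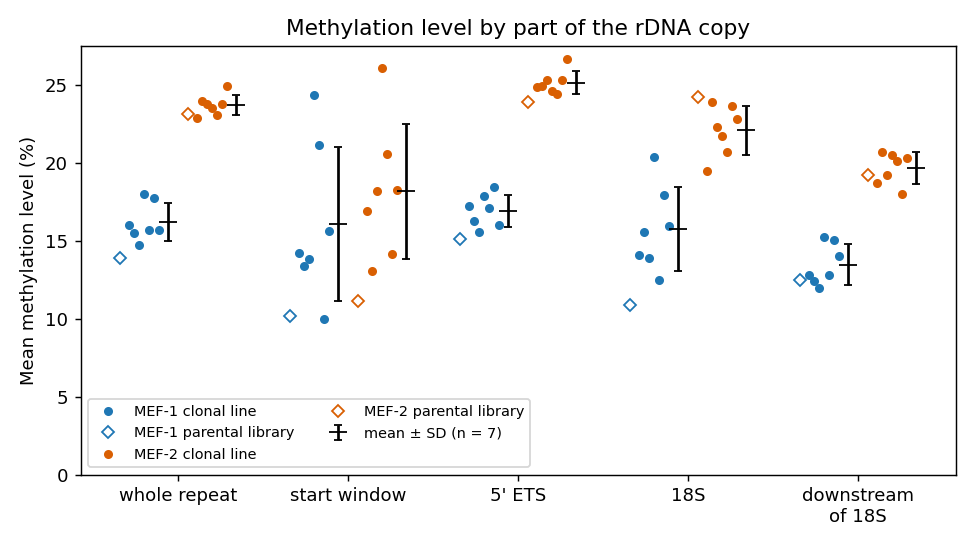
Mean methylation level (%) by part of the copy. Filled points are clonal lines, open diamonds the parental libraries and bars the mean ± SD of 7 lines; the families separate in the 5' external transcribed spacer and downstream of the 18S, and overlap in the start window and the 18S.

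By part, the difference between families was found in the spacer, the 18S and the sequence downstream of it. In the 5' external transcribed spacer, the MEF-1 lines had a mean of 16.9% ± 1.05 (SD, n = 7) and the MEF-2 lines 25.2% ± 0.743 (SD, n = 7), with no overlap and adjusted p = 0.00117 (exact permutation test, Benjamini-Hochberg over the 4 parts). Downstream of the 18S the means were 13.5% ± 1.30 and 19.7% ± 1.02 (SD, n = 7 each), again without overlap and with the same adjusted p of 0.00117 (exact permutation test). In the 18S itself the means were 15.8% ± 2.68 and 22.1% ± 1.59 (SD, n = 7 each) and the adjusted p was 0.00155 (exact permutation test), although the highest MEF-1 line at 20.4% lay above the lowest MEF-2 line at 19.5%.

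The 7 CpGs of the start window showed no called difference as a group. The MEF-1 lines averaged 16.1% ± 4.96 and the MEF-2 lines 18.2% ± 4.33 (SD, 7 lines per family), the ranges overlapped, and the difference of 2.11 points did not pass the test (adjusted p = 0.408, exact permutation test). Only 2 of these CpGs had at least 100 reads in every library, and over them the difference was 3.86 points with an adjusted p of 0.0181 (exact permutation test), so the call for this window depended on the read minimum. The difference moved between 0.79 points without MEF-2 line 4 and 3.49 points without MEF-1 line 4, with 1.095 points without MEF-1 line 6, and was 4.99 points without MEF-1 lines 1, 4 and 5, none of them past the threshold. The CpG at 39843045 was the 1 of 7 called by the model described below, at 8.73% ± 2.44 in the MEF-1 lines and 15.4% ± 3.63 in the MEF-2 lines (SD, n = 7 each).

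Within lines, the parts were not equally methylated. The sequence downstream of the 18S was below the spacer in 7 of 7 lines of either family, with a mean difference of -3.45 points for the MEF-1 lines and of -5.50 points for the MEF-2 lines (adjusted p = 0.0313 for both, exact sign-flip test over lines, adjusted over 6 differences). The 18S was below the spacer in 7 of 7 MEF-2 lines, with a mean difference of -3.08 points (adjusted p = 0.0313, exact sign-flip test), and in 6 of 7 MEF-1 lines, with one of -1.18 points (adjusted p = 0.281, exact sign-flip test). Without line 4 the MEF-1 difference was -1.79 points and passed (adjusted p = 0.0375, exact sign-flip test), and without line 5 it was -0.60 points. The MEF-2 differences of the 18S and of the downstream sequence kept adjusted p = 0.0469 without line 4 and had 0.0625 without any other line (exact sign-flip test). The start window was below the spacer in 6 of 7 MEF-2 lines, with a mean difference of -6.97 points (adjusted p = 0.0469, exact sign-flip test), and in 5 of 7 MEF-1 lines, with one of -0.84 points (adjusted p = 0.672, exact sign-flip test). The MEF-2 call was lost without line 1, 2, 3, 5, 6 or 7, left out singly (adjusted p = 0.0938 each, exact sign-flip test). The MEF-1 value was -4.22 points with pooled reads (adjusted p = 0.0375, exact sign-flip test), -5.45 points over the 2 CpGs with at least 100 reads (adjusted p = 0.0187, exact sign-flip test), -2.07 points without line 4, -1.66 points without line 5, -0.48 points without line 1, -0.50 points without line 2 and 0.42 points without line 6. That gap differed between families by -6.13 points, which did not pass the test (adjusted p = 0.0533 over 3 such gaps, exact permutation test), but passed with at least 100 reads (-4.21 points, adjusted p = 0.0411), without MEF-1 line 6 (-7.39 points, adjusted p = 0.0201) and without MEF-2 line 4 (-7.54 points, adjusted p = 0.0114). The gap between 18S and spacer differed by -1.90 points (adjusted p = 0.0903, exact permutation test), and by -2.47 points without MEF-1 line 5, which passed (adjusted p = 0.0297, exact permutation test). The gap between downstream and spacer differed by -2.05 points, MEF-2 minus MEF-1 (adjusted p = 0.0157, exact permutation test), and by -1.11 points with an adjusted p of 0.0664 (exact permutation test) when reads were pooled over CpGs in place of averaging levels.

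**Figure D2:**
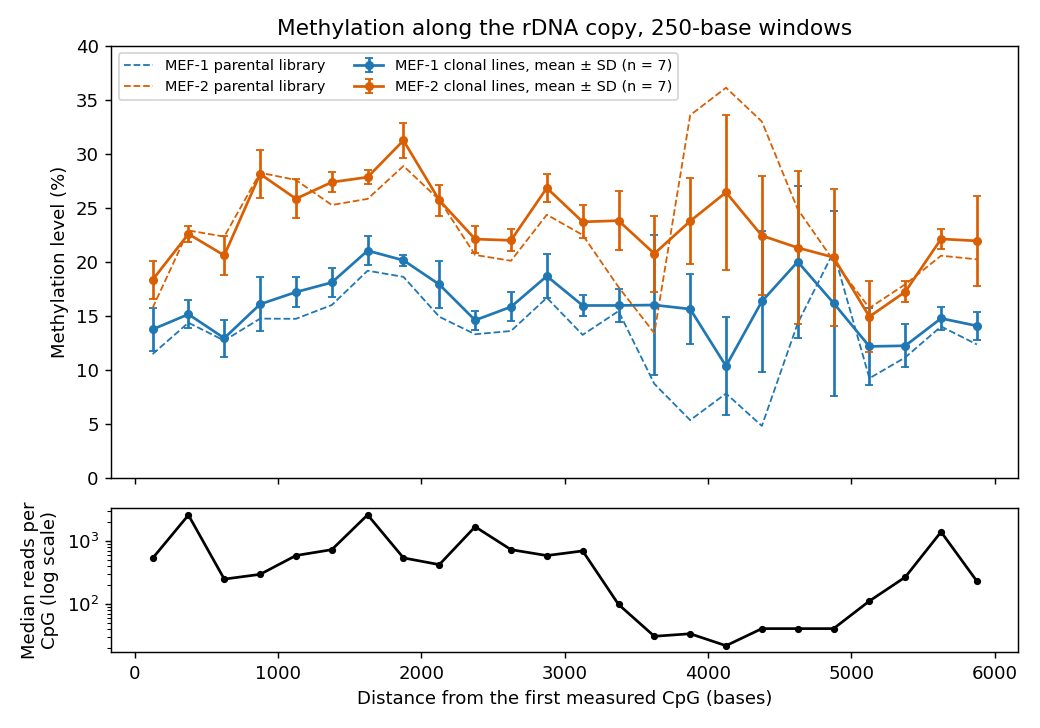
Methylation level (%) in 250-base windows against the distance from the first measured CpG (bases), as mean ± SD of 7 clonal lines per family with the parental libraries dashed; the lower panel gives the median reads per CpG on a log scale. The MEF-2 mean lies above the MEF-1 mean in all 24 windows.

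In windows of 250 bases, the MEF-2 mean was above the MEF-1 mean in 24 of 24 windows, and the 7 lines of one family did not overlap those of the other in 17. Of the 17 windows with a median of at least 100 reads per CpG, 15 did not overlap, against 2 of the 7 shallower windows. The windows are adjacent parts of the same copy in the same libraries, so they are not separate observations. The share of such windows over the rest of the table is not given here. The highest window of the MEF-2 lines, 1750 bases from the first CpG, was at 31.2%, where the MEF-1 lines were at 20.1%. The MEF-1 lines were highest at 21.04%, in the window before it.

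Over single CpGs, a quasi-binomial model of methylated and unmethylated reads was fitted to the whole table, with an adjusted p below 0.05 as the call. It called 407 of the 562 members, or 72.4%, against 20.2% of all CpGs of the table. These shares were reached at unequal depth, with a median of 521 reads per member and library against 26.0 to 39.0 reads at the other CpGs of each library, and fewer reads leave more differences uncalled. All 407 were higher in MEF-2, whereas of all tested CpGs 8.53% were called higher in MEF-2 and 11.6% higher in MEF-1. The called share was 333 of 372 in the spacer and 61 of 82 downstream, but 12 of 101 in the 18S and 1 of 7 in the start window. Median reads per CpG were 668 in the spacer, 770.5 downstream, 37.0 in the 18S and 122 in the start window, and the part of depth in these shares was not tested. With limma on the levels, 417 members were called, all higher in MEF-2, against 19.6% of the table, and 405 of them were also called by the quasi-binomial model.

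The largest called differences lay in a short, thinly read cluster of the spacer, the fourth sequence above. At the CpG at 39844963, the MEF-1 lines ranged from 8.82% to 33.3% and the MEF-2 lines from 38.9% to 72.7%, without overlap, on 11 to 35 reads per library (adjusted p = 0.00149, quasi-binomial model). The neighbouring CpGs at 39844947 and 39844941 differed by 26.2 and 23.3 points. The highest mean levels of the copy were also found there, at 39844955 (40.7% over the 16 libraries), 39844994 (37.7%) and 39844974 (37.2%). The CpG at 39844994 had a higher mean in the MEF-1 lines, 43.7% ± 9.79 against 32.9% ± 4.57 (SD, n = 7 each), a difference that was not called (adjusted p = 0.0907, quasi-binomial model).

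Of the 3 lowest members, that at 39843517 was deeply read, with 4.90% ± 1.16 in the MEF-1 lines against 8.74% ± 2.05 in the MEF-2 lines (SD over 7 lines), and the model called it (quasi-binomial, adjusted p = 0.00344). The CpG at 39848454, downstream of the 18S, was at 3.00% ± 2.72 and 8.49% ± 4.69 (SD, n = 7 each) and was not called. The position 39844715 had 0 methylated reads of 334 in the 16 libraries, which allows a level of up to 0.898% by counting error. It was 1 of 4 members, all in the spacer, that are not at a CpG of the reference.

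The order of levels along the copy was shared. Over the 398 members with at least 100 reads in every library, the mean levels of MEF-1 and MEF-2 lines had r = 0.83, and those of each parental library and its lines r = 0.93 for MEF-1, with 0.92 for MEF-2. These are descriptions across CpGs that share libraries and neighbouring reads. The level had r = 0.12 with the number of other CpGs within 100 bases and r = 0.09 with the log2 reads, over the same CpGs.

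The spread between clonal lines was estimated at the copy and at other CpGs. The spread between lines beyond read sampling, which is the SD over lines after the binomial variance of the reads is taken off, was 2.73 points (jackknife SE 0.434) among MEF-1 lines and 1.99 points (jackknife SE 0.376) among MEF-2 lines. By part it was 4.06 points (jackknife SE 1.499) and 3.27 points (jackknife SE 1.42) at the 101 members of the 18S, which have few reads, and 2.33 points (jackknife SE 0.193) and 1.57 points (jackknife SE 0.421) at the other 461. Over members with at least 20 reads in every library it was 2.19 and 1.26 points. Over the 439 members at 10 to 40% in both parental libraries, a subset chosen after the data were seen, it was 2.57 points (jackknife SE 0.568) and 1.82 points (jackknife SE 0.243). Outside the copy, the 50155 CpGs at 10 to 40% in both parental libraries had a spread of 14.1 points (jackknife SE 0.582) among MEF-1 lines and 16.7 points (jackknife SE 0.722) among MEF-2 lines. Among the 936 of these with at least the members' median number of neighbouring CpGs, the spread was 12.4 points (jackknife SE 0.694) and 15.8 points (jackknife SE 0.736). These sets differ in depth, with a median of 496.5 reads at all members, 632 at the 439 members and 31.0 at the 50155 CpGs in the MEF-1 lines. A member's level can also be an average over many rDNA copies, as said above, so its spread between lines is not that of a single copy. The part of this in the spread was not tested, and no test was made of the difference in spread between the sets.

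**Figure D3:**
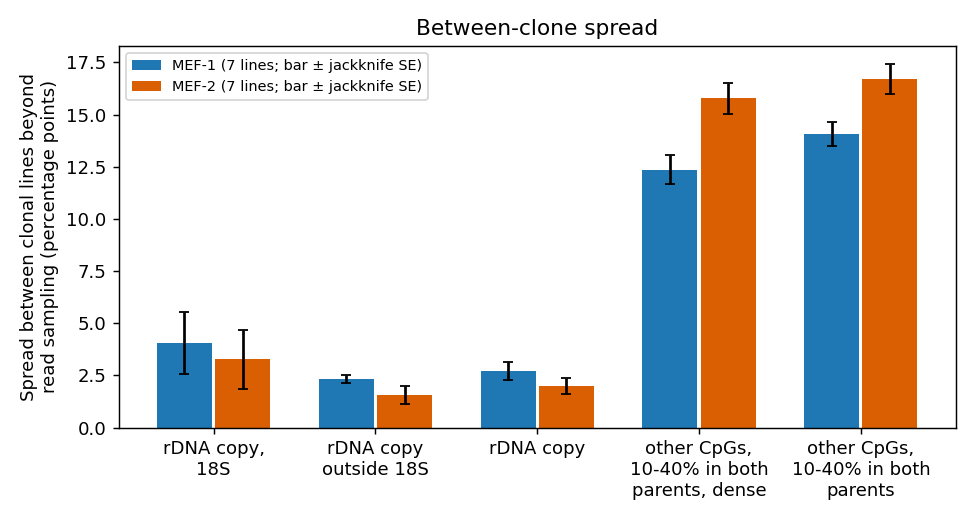
Spread between the 7 clonal lines of each family beyond read sampling (percentage points); bars show the estimate and whiskers the jackknife SE over lines. The whole copy lies below 3 points in either family, its 18S at 4.06 and 3.27 points, and the other CpGs at 10 to 40% lie above 12.

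Most members kept to one range of levels. In MEF-2, 491 of 562 members were at 10 to 40% in all 7 lines, and in MEF-1 368 were. Levels below 10% were found at 112 members in the MEF-1 parental library and at 34 to 92 in its lines. In MEF-2 they were found at 14 members in the parental library and at 5 to 16 in its lines. Levels of 60% or more were found at up to 3 members in a MEF-2 line and at 0 members in the MEF-1 lines. In MEF-2 line 5 the 3 were the thinly read CpGs at 39844955, 39844963 and 39844947, on 16, 18 and 21 reads.

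One stretch of the spacer was chosen by its dispersion, so variation between lines there was fixed by the choice. The 3 members with the highest dispersion in the model, at 39844620, 39844637 and 39844606, lie within the second sequence above and had at least 2360 reads in every library. For a given spread between lines this dispersion grows with reads. At 39844620 it was 28.9 with a raw SD of 6.84 points among MEF-1 lines. The thinly read CpG at 39844955 had a dispersion of 2.55 with a raw SD of 14.2 points. At 39844620 the level was 41.4%, 45.4% and 46.5% in MEF-1 lines 1, 4 and 5, and 34.2%, 32.6%, 36.2% and 28.2% in lines 2, 3, 6 and 7. The MEF-2 lines at this CpG kept to between 31.49% and 33.98%, and the parental libraries were at 33.9% (MEF-1) and 31.9% (MEF-2). The family means at the 3 CpGs were not called different.

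**Figure D4:**
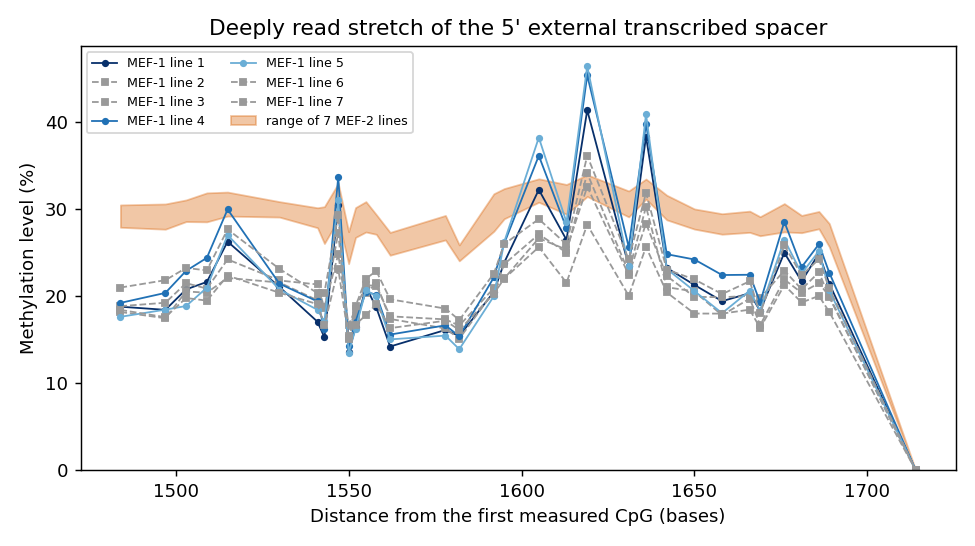
Methylation level (%) of single CpGs of the spacer against the distance from the first measured CpG (bases). Blue circles are MEF-1 lines 1, 4 and 5, grey squares the other 4 MEF-1 lines and the band the range of the 7 MEF-2 lines; the blue lines rise above the rest at the CpG with 46.5% in line 5, while at 39844632, between the peaks, the lines overlap.

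Of the 18 members of this stretch, lines 1, 4 and 5 all lay above the other 4 MEF-1 lines at 6, among them the consecutive CpGs 39844606, 39844614 and 39844620, and all lay below at 2. The 6 include the CpGs by which the stretch was chosen. The CpG at 39844632, between the peaks, did not separate them, at 23.5%, 25.7% and 23.4% in lines 1, 4 and 5 and between 20.1% and 24.2% in the other 4. Over the whole copy, lines 1, 4 and 5 all lay above the other 4 MEF-1 lines at 37 members, or 6.58%, against 3.84% of the table, and all lay below at 8 members, against 2.38% of the table. Of the 37, 34 lay in the spacer and 0 among the 101 members of the 18S. These shares also compare unequal depths, and neighbouring CpGs share reads. This grouping of lines was looked at because the lines share a low coverage of chromosome 18, at 0.621 to 0.641 of the median of the MEF-2 lines against 0.941 to 0.997 in the other 4 MEF-1 lines. They were also lower on chromosome 17, where the assembly holds this copy, at 0.881 to 0.995 against 1.005 to 1.019. Reads placed on this copy can come from copies that the assembly leaves out, and these data do not give the chromosomes of those copies. Other chromosomes differed between the families. On chromosome 12 the MEF-1 lines were at 0.634 to 0.664 against 0.989 to 1.015 in MEF-2 lines. On chromosome 19 the MEF-1 lines were at 1.27 to 1.37 against 0.995 to 1.006. The MEF-1 lines also ranged from 1.03 to 1.21 on chromosome 15 and from 0.827 to 1.01 on chromosome 16. The part of any of these in the levels was not tested, and the count over lines 1, 4 and 5 was chosen after its values were seen.

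Coverage, taken as a proxy for copy number, was high, and no difference between the families was detected over the whole copy. Capture, PCR and mapping also enter this proxy. The median member had 15.1 to 17.8 times the reads of the median of the other CpGs of its library in the 14 clonal lines, with means of 16.6 ± 0.923 for MEF-1 lines and 16.9 ± 0.808 for MEF-2 lines (SD, n = 7 each). The log2 difference of 0.02 did not pass an exact permutation test (p = 0.601), and it turned sign with the scaling. Of the parental libraries, that of MEF-1 was at 16.9 and that of MEF-2 at 17.5. A relative coverage of at least 10 in all 16 libraries was found at 331 of the 562 members and at 717 other CpGs of the table, or 0.0596% of the other CpGs.

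**Figure D5:**
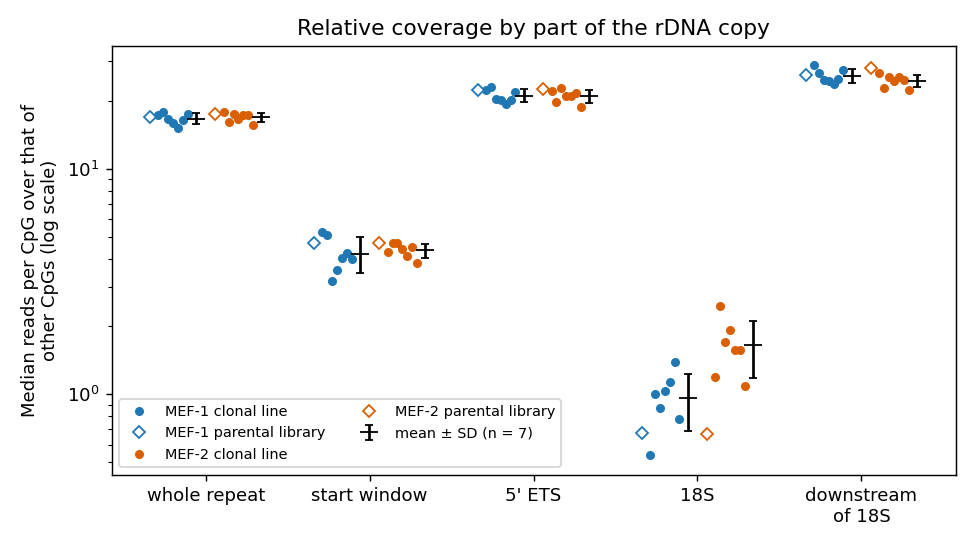
Median reads per CpG of each part over the median of other CpGs, on a log scale. Filled points are clonal lines, open diamonds parental libraries and bars the mean ± SD of 7 lines; the 18S lies between 0.538 and 2.47, while the spacer lies above 18.

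Relative coverage was uneven along the copy. The MEF-1 and MEF-2 lines had means of 21.04 ± 1.39 and 20.97 ± 1.36 in the spacer and of 25.8 ± 1.81 and 24.5 ± 1.52 downstream of the 18S (SD, n = 7 each). In the 18S they had 0.963 ± 0.271 and 1.65 ± 0.461 (SD, n = 7 each), and the parental libraries were at 0.676 and 0.667, near the level of a single-copy CpG. The log2 difference between families in the 18S, 0.781, was not tested. Of the 101 members of the 18S, 82 lie in sequence with a match elsewhere in the genome of at least 100 bases at 90% identity or more, for example 98.02% identity over 908 bases of chromosome 6. The 3 measured CpGs of that chromosome 6 match, with a median of 26.0 reads, were at 95.2% in the MEF-1 lines and 68.4% in the MEF-2 lines. Reads of low mapping quality were dropped by the authors. The other 19 members of the 18S had a median of 33.5 reads, close to the 38.0 reads of the matched ones, and the part of mapping in this coverage was not tested. Matches were also found for the 7 members of the start window and for 30 of the spacer, on chromosome 11 at 92.3% identity, where the 17 measured CpGs were at 80.5% in the MEF-1 lines and 76.9% in the MEF-2 lines. The 30 matched spacer members had a median of 1688 reads and the 342 others 638.

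The level was compared with relative coverage across lines within each family. In MEF-2, Pearson's r was -0.82 (adjusted p = 0.0401, exact permutation test) and Spearman's rho -0.82 (adjusted p = 0.0683, exact permutation test, 2 families). Without the lines farthest from the median coverage, lines 2 and 7, r was -0.38 over the remaining 5 lines, which span a narrower range of coverage, so the relation was not shown apart from those lines. With pooled reads r was -0.50 (adjusted p = 0.264, exact permutation test) and the call was lost. In MEF-1, r was -0.32 (adjusted p = 0.484, exact permutation test), rho was -0.54 (adjusted p = 0.236, exact permutation test), and r was -0.64 without lines 2 and 5. With pooled reads the MEF-1 r was -0.58 (adjusted p = 0.264, exact permutation test).

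The promoters of genes of the polymerase I pathway, and of other genes listed with them such as Uhrf1 and Top2a, were looked at beside the copy. Of 54 gene names listed, 51 were found in the annotation, and 37 had a measured CpG in the 1000 bases before their start. These held 816 CpGs in all, of which 55 were called (6.74%, against 20.2% of the table), 30 higher in MEF-1 and 25 higher in MEF-2. Ubtf, which encodes the factor UBF that binds rDNA, was at 2.33% ± 0.817 and 1.65% ± 0.907 (SD, n = 7 each) with 0 of 30 CpGs called. No fewer measured promoter CpGs were called than not called in Rrn3, the polymerase I initiation factor TIF-IA, and in Taf1d, a subunit of the selectivity factor SL1, with 2 of 3 CpGs in each. Over its 3 measured CpGs, Rrn3 was at 48.1% ± 5.15 among MEF-1 lines and 95.3% ± 3.05 among MEF-2 lines (SD, n = 7 each), and Taf1d over its 3 at 55.6% ± 10.4 and 89.8% ± 5.57 (SD, n = 7 each). So few CpGs do not give the level of the whole promoter. Of the 37 genes, 21 had a mean level under 10% in both families.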

How the data were processed

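Target capture bisulfite sequencing of 2 parental and 14 clonal MEF lines was analysed, with groups and replicate numbers from the labels. The authors trimmed reads with Trim Galore 0.6.0, used Bismark for alignment to mm10, kept reads of mapping quality 10 or more, trimmed biased read ends and combined both strands. PCR duplicate removal is not stated, so intervals cover counting error only. The deposited values are counts of methylated and unmethylated reads per CpG, not normalized. The series table leaves out chromosomes 12, 18, 19, X and Y, and its 8992 member counts equalled those of the library tables. Its 2 other columns of per-sample values, and the authors' fidelity, neighbour and CpG number columns, were not used.

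A level was the percentage of methylated reads. Lines were compared by exact permutation or sign-flip tests, and single CpGs by a quasi-binomial model (dispersion of at least 1, F test) over the whole table with Benjamini-Hochberg adjustment. This model was tested on simulated data with shifts of 20 and 40 points between families, the larger added after most 20-point shifts were missed at the table's depth. Calls had the right sign and false calls were rare at either size, and nearly all 40-point shifts were recovered. A CpG that was not called is therefore not shown to be equal. The simulation had the table's depth, a fixed spread between lines and shifts larger than the 7.52 points of the copy. It does not test calls or false calls at the members' depth and difference. Tools were Python 3.11.15, scipy 1.17.1, R 4.3.3, limma 3.58.1 and BLAST 2.17.0, with GENCODE M21 and RefSeq annotation.

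The region and gene lists were chosen with earlier results of these data known. Named CpGs were all of the start window, the 3 highest and 3 lowest, the 3 called with the largest difference and the 3 with the highest dispersion. Listed genes were named where no fewer promoter CpGs were called than not called. Ubtf, the CpG at 39844632 and the count over lines 1, 4 and 5 were chosen after their values were seen. Alternatives were pooled reads, other read minimums, reference CpGs alone, other coverage scalings, a replicate block and leaving out lines.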

Additional observations from a re-analysis of the deposited data

Results flagged for a closer look

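Among 58 groups of 7 lines checked for a line far from the others, 3 were singled out, and chance gives about 1 in 20. MEF-2 line 7 stood apart in the spacer with a mean level of 26.7%. MEF-1 line 4 stood apart at the CpG at 39843026 of the start window with 35.8%. MEF-2 line 4 stood apart at the CpG at 39844606 with 30.8%, below the other MEF-2 lines. The gap between the sequence downstream of the 18S and the spacer differed between families, by -2.05 points in MEF-2 minus MEF-1 (adjusted p = 0.0157, exact permutation test). It was -1.23 points with at least 100 reads (adjusted p = 0.0411, exact permutation test). With pooled reads it was -1.11 points and did not pass (adjusted p = 0.0664, exact permutation test).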

How the results depend on the processing

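The family difference of the copy stayed between 7.27 and 7.82 points when each line was left out, and the spacer, 18S and downstream differences kept their calls under every alternative that gave a value. No 18S CpG had 100 reads in every library, so that minimum gave no value there. In the start window, at least 100 reads gave a family difference of 3.86 points, a MEF-1 difference to the spacer of -5.45 points and a family difference of that gap of -4.21 points, all past the threshold, and pooled reads gave -4.22 points in MEF-1. Pooled reads also gave -1.11 points for the downstream gap between families, and r = -0.50 in MEF-2 and -0.58 in MEF-1 for level against coverage. None of these passed the threshold. Leaving out 1 line each gave 0.79 to 3.49 points for the family difference of the start window, -2.07 to 0.42 points for the start window against the spacer in MEF-1, -8.39 to -6.15 for MEF-2 and -7.54 to -4.91 between families, -1.79 to -0.60 for the 18S in MEF-1, -3.42 to -2.68 in MEF-2 and -2.47 to -1.29 between families, and -5.74 to -5.20 for downstream in MEF-2. With 6 lines the sign-flip test cannot go below p = 0.0313 (exact). The 18S and downstream differences of MEF-2 stayed at that unadjusted value and lost the adjusted call in 6 of 7 leave-outs, and the MEF-2 start window lost its call in 6 of 7 at an unadjusted p of 0.0625 (exact). The coverage difference (log2) was 0.0482 scaled to chromosomes 3, 4, 6 and 9 and -0.0280 scaled to chromosome 17. It was -0.0676 with mean coverage, -0.0147 without MEF-1 lines 1, 4 and 5, -0.0077 without 18S CpGs (an alternative chosen after seeing the data), and -0.00110 to 0.0401 with each line left out. With at least 20 reads the spread was 2.19 points among MEF-1 lines and 1.26 among MEF-2 lines, and the cause was not tested. Same-numbered lines of the 2 families had deviation correlations of -0.08 to 0.13 and none matched its own number best, so the numbers do not pair them. The replicate block gave 7.52 points for the copy (p = 0.0156, exact sign-flip test) and, with limma, 383 called members of 562 against 17.5% of the table.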
